A study of Homo sapiens with 4 samples.

Results

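The clustered protocadherin genes form 3 neighbouring subclusters, alpha, beta and gamma, on the long arm of chromosome 5, and lamin B1 occupancy was described along them in 2 prostate cancer cell lines. The members are the bins of the deposited enrichment tables that overlap chr5:140160000-140900000 of hg19, with alpha at 140160000-140395000, beta at 140430000-140630000 and gamma at 140710000-140895000. This gave 19 bins of 40 kb out of 71569 that both tables share: 6 for alpha, 6 for beta, 6 for gamma and 1 between beta and gamma. The first beta bin and the first and last gamma bins lie mostly outside their subclusters. The 50 bins on each side, 2 Mb of flank, were read alongside them. Every bin had a value and a state in both lines, so no member was lost to a filter.

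Lamin B1 is a filament protein that lines the inside of the nuclear envelope as part of the lamina, and chromatin recovered with it by immunoprecipitation and sequencing (ChIP-seq) is read as lying at the nuclear edge. LNCaP is a long-used prostate adenocarcinoma line, and VCaP is a long-used line from prostate cancer metastatic to bone. Both were grown in culture, with no drug or genetic change given in the labels, and fixed with formaldehyde. For each line there is 1 library made with the lamin B1 antibody and 1 made from input DNA without antibody, which gives 4 groups of 1 library. No difference below has a replicate check, none was tested, and all values compare these libraries, not the cell lines. The labelled cell types could not be checked against marker genes, since no expression was measured.

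Clustered protocadherins are cadherin-like adhesion proteins of the cell surface, known best from neurons, where each cell expresses its own combination of isoforms and like combinations recognise each other. In alpha and gamma, each of many variable first exons has its own promoter and is spliced to constant exons shared by the whole subcluster, whereas each beta gene is a single-exon gene of its own. Promoter choice is stochastic for most isoforms, depends on DNA methylation and on looping between promoter and enhancer by CTCF and cohesin, and is more regular for the C-type isoforms at the far end of alpha and gamma. The RefSeq gene table (GRCh38.p14) lists 53 protein-coding members: 15 alpha genes from PCDHA1 to PCDHAC2, 16 beta genes and 22 gamma genes from PCDHGA1 to PCDHGC5. In gene order, ZMAT2, HARS2 and HARS1 come just before alpha, SLC25A2 and TAF7 stand between beta and gamma, and DIAPH1 and HDAC3 follow gamma. ZMAT2 encodes a splicing protein, HARS1 and HARS2 encode histidyl-tRNA synthetases, SLC25A2 a mitochondrial ornithine carrier, TAF7 a subunit of the transcription factor TFIID, DIAPH1 an actin-nucleating formin and HDAC3 a histone deacetylase. Their positions are in another build than the enrichment values, so single genes were not assigned to bins.

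A few promoters of these genes are shown to let a reader see what kind of sequence the lamin B1 values cover. Many promoters of clustered protocadherins, but not all, are known for a conserved sequence element with the core CGCT close to the start of the gene. Shown are the 100 bases before the start of the first gene of each isoform type and of C-type genes, from RefSeq (GRCh38.p14, plus strand), chosen by place in the cluster and not by value. Capitals mark every CGCT on the gene strand, and a mark alone does not show that the element is present.
PCDHA1 (chr5:140786040-140786139): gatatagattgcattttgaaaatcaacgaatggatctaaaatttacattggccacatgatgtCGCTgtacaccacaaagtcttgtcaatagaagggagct
PCDHAC1 (chr5:140926199-140926298): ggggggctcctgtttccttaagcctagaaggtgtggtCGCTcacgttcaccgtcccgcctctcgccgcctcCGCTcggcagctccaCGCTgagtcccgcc
PCDHAC2 (chr5:140966376-140966475): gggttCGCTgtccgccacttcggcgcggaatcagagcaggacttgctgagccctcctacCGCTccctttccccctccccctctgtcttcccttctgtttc
PCDHB1 (chr5:141051274-141051373): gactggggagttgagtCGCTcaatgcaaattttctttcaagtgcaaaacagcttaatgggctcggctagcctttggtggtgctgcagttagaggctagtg
PCDHGA1 (chr5:141330414-141330513): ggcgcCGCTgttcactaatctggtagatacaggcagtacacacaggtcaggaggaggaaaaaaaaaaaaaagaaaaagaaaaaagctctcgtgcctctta
PCDHGB1 (chr5:141349999-141350098): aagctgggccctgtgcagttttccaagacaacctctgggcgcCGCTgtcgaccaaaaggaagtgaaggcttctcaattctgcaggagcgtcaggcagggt
PCDHGC3 (chr5:141475866-141475965): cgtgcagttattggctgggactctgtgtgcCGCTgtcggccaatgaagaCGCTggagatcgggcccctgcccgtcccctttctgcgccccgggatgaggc
PCDHGC4 (chr5:141484930-141485029): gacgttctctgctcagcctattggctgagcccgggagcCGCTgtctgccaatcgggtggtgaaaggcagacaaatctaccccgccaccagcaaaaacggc

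Promoter windows of 300 bases, 250 before the gene start and 50 after it, were matched for 47 of the 53 genes. PCDHA3, PCDHA13, PCDHB6, PCDHB11, PCDHGA12 and PCDHGC5 had no entry. CGCT was present on either strand in 46 of the 47 windows and in 69.9% of 34796 promoter windows of all genes, so the 4 letters alone say little. The 6-letter word found in most member windows on the gene strand was CGCTGT, which contains the core. It was present on either strand in 25 of 47 member windows (53.2%) and in 11.2% of all promoters. By subcluster it was in 7 of 13 alpha, 1 of 14 beta and 17 of 20 gamma windows. CGCT alone was in 12 of 13 alpha, 14 of 14 beta and 20 of 20 gamma windows. The rarity of CGCTGT in beta therefore does not show that beta windows lack the core. On the gene strand and within 100 bases before the start CGCTGT was in 6 alpha, 1 beta and 16 gamma windows, against 2.22% of all promoters. The word was chosen because it is the most frequent in these windows, so its share among them is a description, and a match is not a binding site. The windows were poor in G and C, with a median GC content of 39.7% and 7 CpG dinucleotides, against 58.7% and 14 in all promoters. The C-type windows, PCDHAC1, PCDHAC2, PCDHGC3 and PCDHGC4, stood apart in GC content, from 59.0% to 66.0%, while no other member window exceeded 51.3%. Their CpG counts, 15 to 27, overlapped those of the others, which reached 16.

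**Figure D1:**
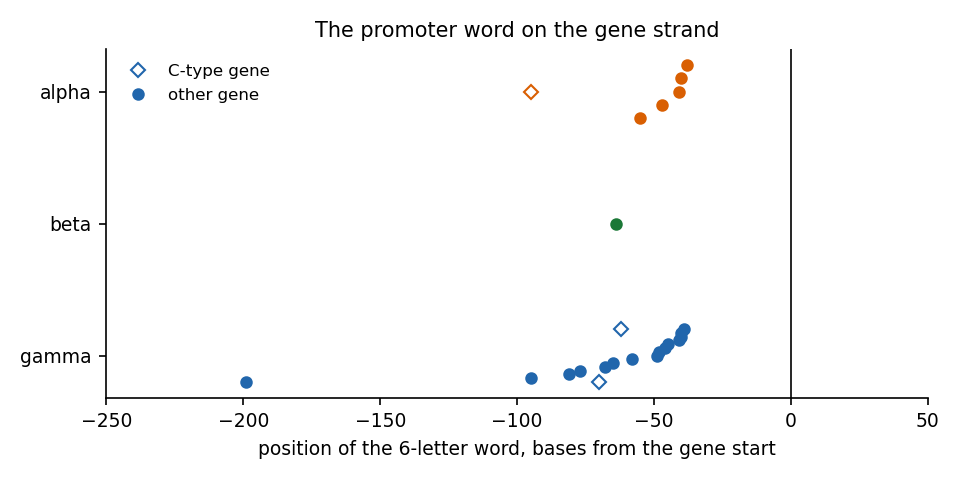
Position of CGCTGT on the gene strand in promoter windows of the clustered protocadherins, in bases from the gene start (x axis), by subcluster; each point is 1 match, and open diamonds are C-type genes. Most matches lie within 100 bases before the start in alpha and gamma, and beta has 1 match.

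The first question was how strongly each subcluster was enriched in each line. Values are log2 enrichment of ChIP over input, so 0 means equal shares, and the deposited tables also give each bin a state from a hidden Markov model, taken here as lamina-associated or not. Errors written with ± are the noise of a mean, estimated from bins 3 apart over the whole genome of the same library. Errors of the steps at borders are estimated otherwise, as given there. Neither kind measures differences between cultures. In LNCaP the entire protocadherin array was in the associated state, with the highest mean over alpha and the lowest over gamma. In VCaP the mean was lowest over beta and highest over gamma.

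Over alpha, which holds the genes from PCDHA1 to PCDHAC2, the LNCaP values of the 6 bins in gene order were 0.36, 0.60, 0.65, 0.73, 0.74 and 0.63. The VCaP values of the same bins were 0.28, 0.44, 0.25, 0.13, -0.024 and -0.057. LNCaP was the higher line in 6 of 6 bins, against 41.9% of all bins, and VCaP minus LNCaP went from -0.080 in the first bin to -0.77 in the fifth. The alpha mean was 0.62 ± 0.11 in LNCaP and 0.17 ± 0.16 in VCaP. Along the subcluster the bins spread with an SD of 0.14 in LNCaP, and of 0.19 in VCaP.

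Over beta, the tandem single-exon genes, the LNCaP values were 0.66, 0.69, 0.57, 0.48, 0.34 and 0.48. The VCaP values were -0.053, -0.017, -0.093, -0.11, -0.016 and 0.21. The lines did not overlap here: the lowest LNCaP bin, at 0.34, lay above the highest VCaP bin, at 0.21. How often the lines fail to overlap over other stretches of 6 bins was not computed. The beta mean was 0.54 ± 0.11 in LNCaP and -0.014 ± 0.16 in VCaP, where it lay within the noise of 0. Enrichment was over 0 in 6 of 6 beta bins of LNCaP and in 1 of 6 of VCaP. Over the whole array it was over 0 in 19 of 19 bins of LNCaP, against 56.9% of all bins, and in 12 of 19 of VCaP, against 66.9% of all bins.

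The single bin between beta and gamma had 0.61 in LNCaP and 0.44 in VCaP. Over gamma, from PCDHGA1 to PCDHGC5 with its constant exons at the far end, the LNCaP values were 0.54, 0.39, 0.20, 0.27, 0.27 and 0.29. The VCaP values were 0.42, 0.40, 0.46, 0.66, 0.83 and 0.80. VCaP was the higher line in 5 of 6 gamma bins, against 58.1% of all bins, and past the noise limit given below in 1 of them. One of the 5 differed by 0.0056, and with the lines centred on their medians VCaP was higher in 4 of 6. After the same centring VCaP was higher in 33729 of all 71569 bins. The gamma mean was 0.33 ± 0.11 in LNCaP and 0.59 ± 0.16 in VCaP.

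Against the whole genome, the LNCaP medians of all 3 subclusters lay in the upper part of the distribution. Only 6.92% of all bins had a higher LNCaP value than the median alpha bin, 11.7% for beta and 27.8% for gamma. In VCaP 50.1% of all bins lay above the median alpha bin, 69.8% above that of beta and 21.0% above that of gamma. Beta in VCaP was thus below the median bin of that library. On the long arm of chromosome 5 alone, with 3277 bins, 12.7%, 17.1% and 35.5% of bins were higher than the alpha, beta and gamma medians in LNCaP, and 38.0%, 59.8% and 11.6% in VCaP.

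**Figure D2:**
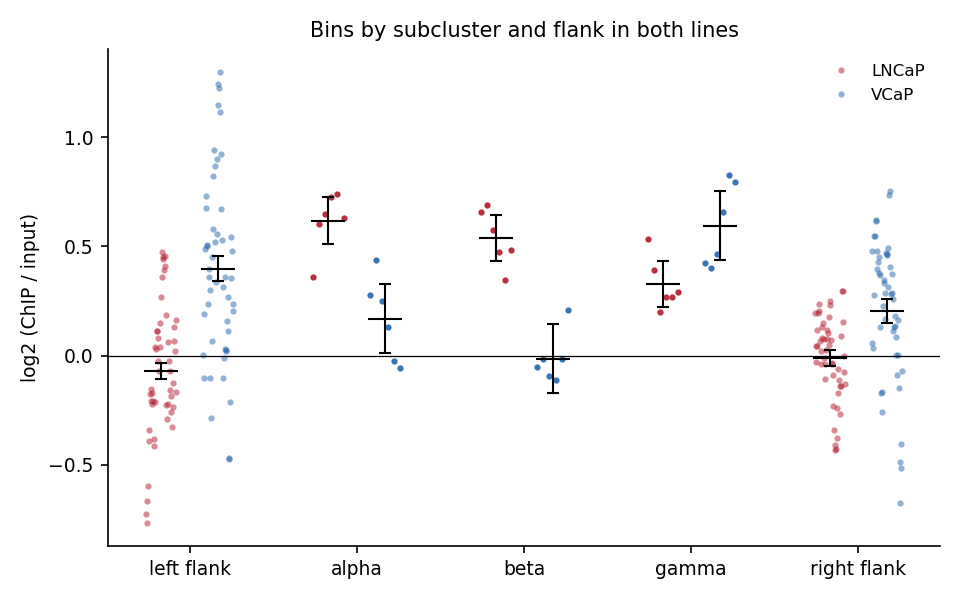
Deposited log2 enrichment (y axis) of every bin in the 3 subclusters and the 2 Mb flanks, LNCaP in red and VCaP in blue; black bars are means with the noise of the mean. LNCaP lies above VCaP over alpha (means 0.62 and 0.17) and beta (0.54 and -0.014), and below it over gamma (0.33 and 0.59) and both flanks.

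The second question was whether the lines differed by more than the noise. The noise of a single bin was 0.15 in LNCaP and 0.22 in VCaP, which adds up to 0.27 for a difference, and a bin was called where the lines differed by more than 2 such SDs, 0.54. LNCaP was higher past this limit in 7 of the 19 bins, against 7.84% of all bins. They form 1 unbroken run, bins 4 to 6 of alpha and bins 1 to 4 of beta. VCaP was higher past it in 1 bin, the fifth of gamma, against 19.1% of all bins. The difference there, 0.56, is barely over the limit, and with the lines centred on their medians or quantile-normalized no bin passed it.

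The mean VCaP minus LNCaP difference was -0.45 ± 0.19 over alpha, -0.55 ± 0.19 over beta and 0.27 ± 0.19 over gamma. Alpha and beta lay over 2 noise SDs below 0, and gamma, as deposited, did not lie 2 above it. The VCaP median of all bins lay 0.13 above that of LNCaP. Relative to that shift the differences were -0.58 over alpha, -0.69 over beta and 0.13 over gamma, and after quantile normalization the gamma difference was 0.074. Other choices moved the gamma difference up, to 0.38 with the averaging undone, which is about 2 noise SDs, and to 0.43 over the 4 bins whose averaged entries all lie in gamma. The size of the gamma difference therefore depended on the scaling and the averaging, and it was not shown to lie past the noise.

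The contrast between subclusters within a line does not depend on where 0 is set. Gamma minus beta was -0.21 ± 0.15 in LNCaP and 0.61 ± 0.22 in VCaP, and the 2 values differed by 0.82 with a noise SD of 0.27. Gamma minus alpha was -0.29 ± 0.15 in LNCaP and 0.43 ± 0.22 in VCaP, which differed by 0.72 with the same noise SD. Beta minus alpha was -0.081 ± 0.15 and -0.18 ± 0.22, within the noise of both lines. In VCaP the gamma and beta bins did not overlap, with the lowest gamma bin at 0.40 and the highest beta bin at 0.21. In LNCaP the bins of all 3 subclusters overlapped. How often other nearby stretches of this length fail to overlap within a line was not computed. Across the 19 bins the lines ran against each other, with a Pearson r of -0.62 and a Spearman rho of -0.59. The corresponding r was 0.68 over the 50 bins of the left flank, 0.077 over the right flank and 0.28 over all bins. These correlations are descriptions, since neighbouring bins share averaged values, and with the averaging undone r across the clusters was -0.31.

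**Figure D3:**
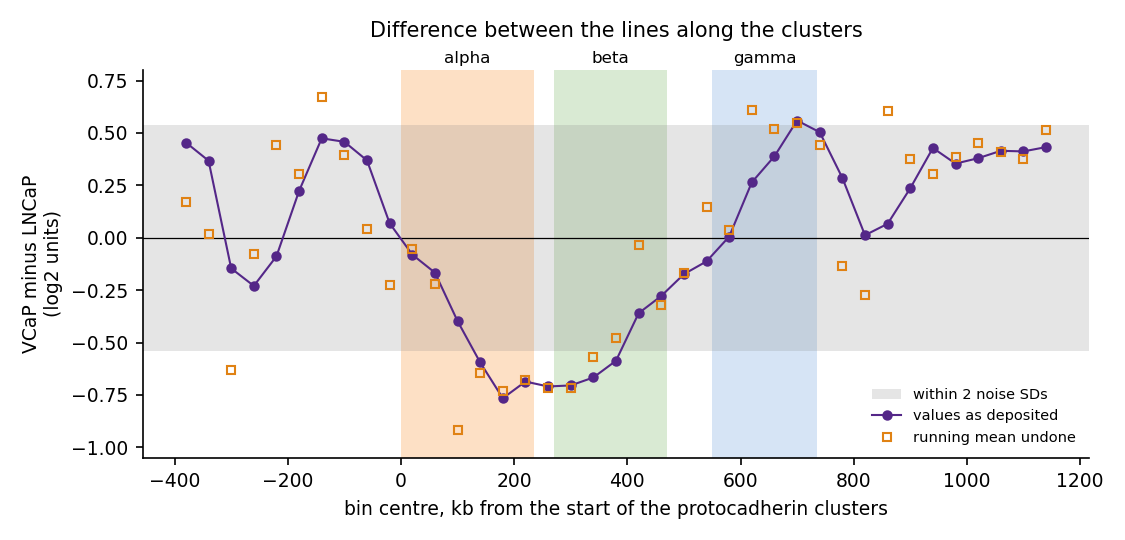
VCaP minus LNCaP difference in log2 enrichment (y axis) against the distance of the bin centre from the start of the clusters in kb (x axis), as deposited and with the running mean undone; the grey band is 2 noise SDs. The deposited difference is below the band from the fourth alpha bin to the fourth beta bin and reaches 0.56 in gamma.

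The third question was how the state borders lay on the array. In LNCaP all 19 bins were in the associated state, against 37.9% of all bins. In VCaP 10 of 19 were, against 44.4% of all bins: 3 of 6 in alpha, 0 of 6 in beta, 6 of 6 in gamma and the bin between beta and gamma. The 9 bins associated in LNCaP only (17.2% of all bins) were the last 3 of alpha and all 6 of beta. The other 10 were associated in both lines (20.6% of all bins). None was associated in VCaP only (23.8% of all bins) or in neither line (38.4% of all bins).

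In LNCaP the clusters had a domain nearly to themselves. The associated run that holds them spanned chr5:140120001-140960000 of hg19, 840 kb and 21 bins, of which 19 were members, so it extended 1 bin past the array on each side. With the averaging over bins undone, as described below, the extra bin on the left went from 0.16 to 0.83. The extra bin on the right went from 0.19 to -0.038. Its mean enrichment was 0.47, and 24.8% of the 936 LNCaP associated runs had a higher mean. Its length was near the median run of 760 kb. The previous associated run ended 640 kb before it and was 360 kb long, and the next began 2680 kb after it. LNCaP runs outside the associated state had a median length of 1000 kb, so the gap on the left was shorter than that and the gap on the right longer.

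In VCaP the same stretch was broken by a run outside the associated state at chr5:140280001-140640000, 360 kb and 9 bins, with a mean of -0.0038. All 9 of its bins were members, so both of its ends lay within the array, in the middle of alpha and at the last beta bin. The associated run before it, chr5:139960001-140280000, had a mean of 0.35 and held the first 3 alpha bins. The run after it, chr5:140640001-141480000, had a mean of 0.46, held the remaining 7 members and went on into the right flank.

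**Figure D4:**
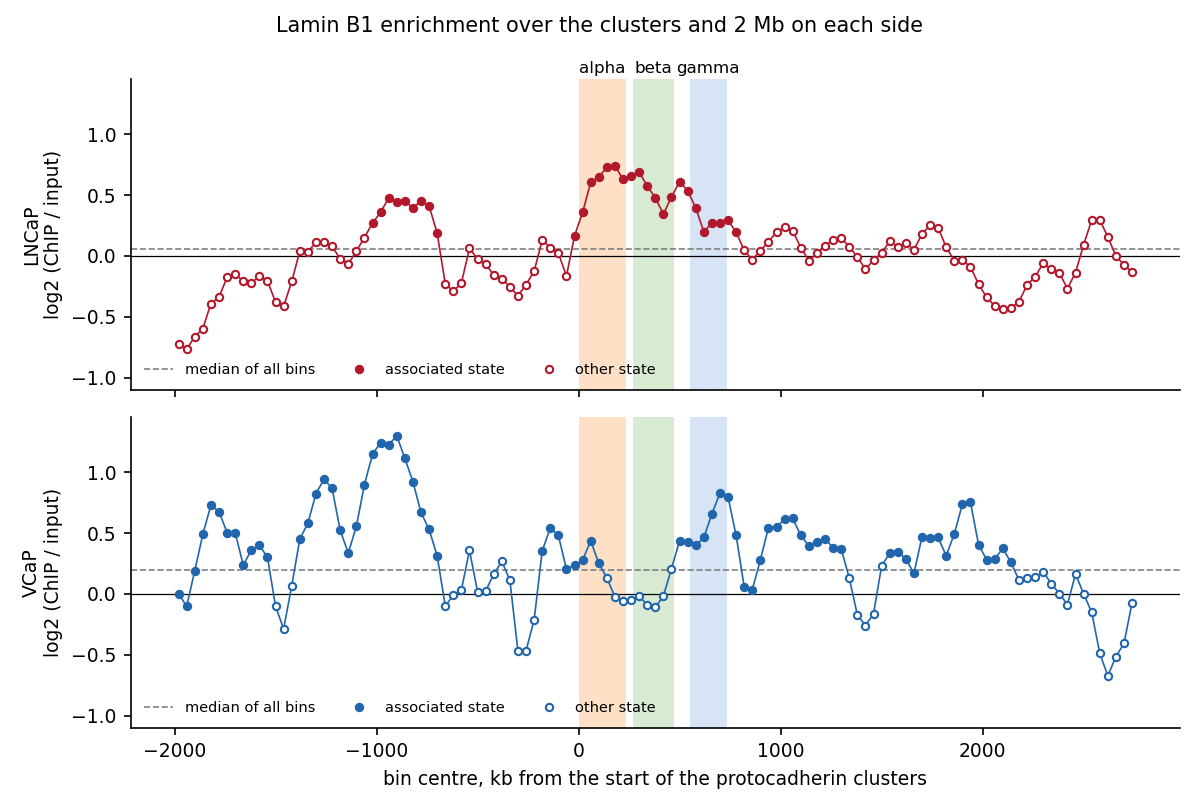
Deposited log2 enrichment (y axis) against the distance of the bin centre from the start of the clusters in kb (x axis), LNCaP above and VCaP below; filled points are bins in the associated state and shading marks the subclusters. The LNCaP domain covers the array and 1 bin on each side, whereas in VCaP the flanks are largely associated and the 9 bins from mid-alpha to the end of beta are not.

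In both flanks VCaP had the higher mean, unlike in alpha and beta. In LNCaP the mean was -0.071 ± 0.037 over the left flank and -0.0089 ± 0.037 over the right, with 10 of 50 and 1 of 50 bins in the associated state. In VCaP it was 0.40 ± 0.055 and 0.21 ± 0.055, with 35 of 50 and 30 of 50 bins associated. VCaP minus LNCaP was 0.47 ± 0.066 over the left flank and 0.21 ± 0.066 over the right. With the lines centred it was 0.34 and 0.080, so over the right flank it then lay within 2 noise SDs of 0. The LNCaP array, with a mean of 0.50 ± 0.059, lay 0.54 ± 0.065 above its flanks. The highest deposited LNCaP value of either flank was 0.47, against an alpha mean of 0.62. With the averaging over bins undone, which is described next, 2 of the 50 left flank bins and 0 of the 50 right flank bins lay above the undone alpha mean of 0.64. The VCaP array, with a mean of 0.26 ± 0.089, lay -0.043 ± 0.097 from its flanks, within the noise. By subcluster the VCaP means were 0.17 over alpha, -0.014 over beta and 0.59 over gamma, against 0.30 over both flanks. The noise of single subclusters against both flanks was not computed. The highest deposited VCaP value was 1.30 in the left flank, above the highest in the array, 0.83. With flanks of 1 Mb the LNCaP contrast was 0.43.

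Each deposited value was treated as the mean of its own bin and the 2 bins before it, 120 kb in all. This was inferred from the values and is not stated in the labels. If so, the first bins of alpha hold signal from the left flank and borders appear about 1 bin late. The averaging was undone to place the steps more closely. With it undone, the largest LNCaP value of the array was 0.97 in the third alpha bin and the smallest 0.045 in the first gamma bin. That gamma bin, chr5:140680001-140720000, lies mostly before the gamma range, and the start of gamma below is the start of that bin. In VCaP the largest was 0.87 in the third gamma bin and the smallest -0.28 in the third beta bin. Estimated from neighbouring bins, the noise of a single undone bin was 0.18 in LNCaP and 0.27 in VCaP, so single bins are less certain than the deposited means.

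Steps were taken as the mean of 5 undone bins after a border minus the mean of 5 before it. Their noise SD comes from that noise of undone bins and counts every bin as separate. At the start of alpha LNCaP stepped from 0.14 to 0.64, which is 0.50 ± 0.12 (noise SD of the step). VCaP went from 0.38 to 0.13 there, a step of -0.25 ± 0.17. The LNCaP rise came before the first alpha bin: the last left flank bin, chr5:140120001-140160000, had an undone value of 0.83, after -0.21 in the bin before it, and the first alpha bin had 0.45. Between alpha and beta neither line stepped by over 2 noise SDs, with -0.18 in LNCaP and -0.048 in VCaP. At the end of beta VCaP stepped from 0.059 to 0.57, a step of 0.51, while LNCaP went from 0.48 to 0.34. At the start of gamma the lines stepped in opposite ways, by -0.29 ± 0.12 in LNCaP and 0.40 ± 0.17 in VCaP, over windows that overlap those at the end of beta. At the end of gamma both lines stepped down, by -0.25 in LNCaP to a mean of 0.031 and by -0.51 in VCaP to 0.21. Of these 5 borders the end of gamma was the one where both lines stepped the same way by over 2 noise SDs, in LNCaP only just. The border used there is the end of the last gamma bin, 140920000, which lies past the end of the gamma range at 140895000.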

How the data were processed

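Lamin B1 ChIP and input libraries of LNCaP and VCaP were sequenced, and the authors deposited, for each line, log2 ratios of ChIP to input per 40 kb bin and a hidden Markov model state. The submitters' processing notes name STAR and hg19. The scaling of ChIP to input, filters and the handling of reads that map to several places are not given in the sources used here, which matters for paralogous genes such as these. No read totals were given, so depth is unknown and no counting interval was computed.

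The first 2 entries of all 24 chromosomes are missing, and of deposited values at or beyond 0.1 in size, 69.1% in LNCaP and 74.2% in VCaP became whole multiples of 1e-06 (tolerance 1e-10) when multiplied by 3, against 24.3% and 25.6% when multiplied by 2. The values were therefore treated as trailing means of 3 entries. Undoing the mean was tested on simulated data built as exact trailing means of 3 entries. That test cannot tell whether the deposited values are such means. The state labelled AD was taken as associated, having the higher enrichment. Noise of deposited values is the median absolute difference of bins 3 apart, scaled by 1.4826 and divided by the square root of 2. A mean counted 1 separate value per 3 bins, and both lines were added in quadrature for differences. For undone values the noise was taken in the same way from neighbouring bins, and the noise of a step counted every bin as separate. With 1 library per group no test was run.

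The members and lists were chosen with earlier results of these data known. All subclusters and bins are named, and promoters by place in the cluster. Alternatives were the undone mean, a shift of 1 bin, stricter overlap, medians, inner bins, centring, quantile normalization, shorter flanks and other definitions of state and noise. Python 3.11.15, numpy 2.4.6, pandas 2.3.3 and matplotlib 3.10.9 were used.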

Additional observations from a re-analysis of the deposited data

Results flagged for a closer look

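Some contrasts along the array had opposite signs in the 2 lines, each with 1 ChIP and 1 input library, and the differences in sign were not tested. Gamma minus beta was -0.21 in LNCaP and 0.61 in VCaP. Gamma minus alpha was -0.29 in LNCaP and 0.43 in VCaP. The array minus both flanks was 0.54 in LNCaP and -0.043 in VCaP, and minus the left flank alone 0.57 and -0.14. The VCaP values of these last 2 contrasts lie within 2 noise SDs of 0 (noise SDs 0.097 and 0.10), so their sign is uncertain. The same holds for gamma minus beta in LNCaP (noise SD 0.15). It also holds for gamma minus alpha in LNCaP (0.15) and in VCaP (0.22).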

How the results depend on the processing

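Of 182 alternative values of the 34 results, 164 stayed within the noise or within 1.5 times the count and 18 moved. Signs changed only for VCaP results that lay within 2 noise SDs of 0 as deposited. Alpha went from 0.17 to -0.024 with centring. Beta went from -0.014 to 0.057 with the mean undone and to 0.068 with values moved 1 bin upstream. The array minus the right flank went from 0.054 to -0.028 with medians and to -0.041 with flanks of 1 Mb. Undoing the running mean, moving values 1 bin upstream, stricter overlap, medians and inner bins moved none. Centring each line on its median put VCaP at 0.067 over the array, -0.024 over alpha, -0.21 over beta and 0.40 over gamma. The difference over the array was then -0.37, and -0.38 after quantile normalization, which also put gamma at 0.074. With flanks of 1 Mb, LNCaP lay 0.43 above both, 0.45 above the left and 0.41 above the right. Of the beta bins in VCaP, 1 was associated with enrichment over 0, with enrichment over the genome median and with states moved 1 bin upstream (chosen after seeing the data). Bins with VCaP higher numbered 2 with noise from bins 2 apart and 0 with centring, with quantile normalization and with a difference over 1, which also left 0 bins with LNCaP higher. No paired analysis was possible because the 4 groups hold 1 library each. Copy number in either line was not tested, and the depth behind single bins is not known.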
